A study of Mus musculus with 12 samples.

Results

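SWI/SNF complexes are multi-subunit machines that use ATP to slide or evict nucleosomes, and 33 genes encoding their subunits and the related ATPases Smarca1, Smarca5, Smarcal1 and Smarcad1 are described here across normal and leukemic mouse marrow. The genes were chosen by symbol and by no measured value, and all 33 were found among the 35976 genes of the count table, Bicra under its older symbol Gltscr1 and Bicral under Gltscr1l. Polyadenylated RNA was sequenced from cells sorted for the CD45.2 allele of CD45, a pan-leukocyte surface protein, from bone marrow of C57BL/6 mice. The 12 libraries formed 4 groups of 3, all of the CD45.2(+) genotype: marrow with no fusion, here WT, and marrow with the fusion MLL-ENL, here ME, MLL-AF9, here MA9, or BRD9-NUTM1, here BN1. The labels name no treatment. The sources used here do not give the age of the mice, the way each fusion was introduced, the promoter driving it or its species of origin. They also do not say whether libraries of a group came from different mice, so the p-values below measure only the spread between these libraries, which may be technical.

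Each SWI/SNF complex carries 1 catalytic ATPase, Smarca4 (BRG1) or Smarca2 (BRM), on a shared core of Smarcb1, Smarcc, Smarcd and Smarce1 subunits. The canonical complex adds Arid1a or Arid1b with a Dpf protein, the polybromo complex adds Arid2, Pbrm1, Brd7 and Phf10, and the Brd9-containing (non-canonical) complex adds Brd9 with Bicra or Bicral and lacks Smarcb1 and Smarce1. Leukemic myeloid cells are known for their dependence on Smarca4 and Brd9, and in BRD9-NUTM1 a subunit of the third complex is itself joined to NUTM1, a male germ line protein that recruits the acetyltransferase p300. MLL-AF9 and MLL-ENL instead join a part of the MLL protein to partners that bind transcription elongation factors.

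Library totals ran from 18292636 to 25732049 counts, and 30 of the 33 genes passed the filter on low counts that left 15334 genes to test. Levels are given as CPM, counts relative to the library total, which was adjusted by TMM factors of 0.928 to 1.051. Differences are log2 fold changes from 1 edgeR quasi-likelihood fit over all libraries, each with an approximate standard error, and a gene is called higher or lower at a Benjamini-Hochberg adjusted p under 0.05 over all genes tested. Ptprc, the gene of CD45, by which the cells were sorted, lay at 942 to 1087 CPM in WT, 474 to 512 in BN1, 317 to 334 in ME and 360 to 415 in MA9. The leukemic groups differed from WT in markers of mature cells: 6 late neutrophil markers summed to 146 to 148 CPM in ME, 291 to 296 in MA9, 2350 to 2375 in BN1 and 29151 to 29234 in WT. Erythroid markers (7 genes) summed to 24355 to 31913 CPM in WT and to at most 24.6 in any leukemic library, and 5 myeloid progenitor markers to 1532 to 1630 CPM in WT and 10799 to 21572 in the leukemias. The part of these differences in the results against WT was not tested, and in bulk RNA a smaller number of expressing cells and less RNA per cell cannot be told apart.

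Promoter windows of 300 bases, from 250 before to 50 after the RefSeq transcript start (GRCm38.p6), were found for 26 of the 33 genes, with 29 windows in all. The windows were rich in CpG, with a median of 67.7% GC and a CpG frequency of 0.936 of that expected from base content, beside 59.3% and 0.709 over the promoters of all tested genes. The E-box letters CACGTG, searched on both strands, were in 3 windows (10.3%), those of Bcl7b, Bcl7c and Pbrm1, beside 9.48% of windows of tested genes. The Ets motif letters CCGGAAGT, searched likewise, were in 0 of the 29 windows, beside 7.08%. The following 3 windows belong to genes whose levels set the leukemias apart, the CpG dinucleotides are in capitals, and the genes were chosen after their values were seen. Arid1b lies on the plus strand (chr17:4994824-4995123), with 42 CpG sites in a window that starts downstream of the gene's first annotated base in both RefSeq and GENCODE. Phf10 lies on the minus strand (chr17:14961211-14961510) and had the highest GC content of the 29 windows, 87%, with 62 CpG sites. Ss18l1 lies on the plus strand (chr2:180042233-180042532), with 39 CpG sites and with part of the neighbouring gene Psma7 inside its window.
Arid1b: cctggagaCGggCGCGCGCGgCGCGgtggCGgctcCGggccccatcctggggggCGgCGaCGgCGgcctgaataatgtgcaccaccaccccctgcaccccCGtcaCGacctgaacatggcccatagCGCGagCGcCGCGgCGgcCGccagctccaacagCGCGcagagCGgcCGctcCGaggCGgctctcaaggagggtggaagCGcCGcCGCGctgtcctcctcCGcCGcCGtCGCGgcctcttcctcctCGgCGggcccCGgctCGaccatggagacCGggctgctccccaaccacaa
Phf10: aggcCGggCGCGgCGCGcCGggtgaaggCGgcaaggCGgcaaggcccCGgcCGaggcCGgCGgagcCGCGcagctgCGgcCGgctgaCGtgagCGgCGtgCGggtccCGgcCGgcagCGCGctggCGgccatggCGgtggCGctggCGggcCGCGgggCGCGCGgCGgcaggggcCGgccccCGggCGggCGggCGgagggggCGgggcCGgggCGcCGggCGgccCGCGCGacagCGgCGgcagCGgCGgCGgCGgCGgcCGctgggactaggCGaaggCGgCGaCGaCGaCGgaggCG
Ss18l1: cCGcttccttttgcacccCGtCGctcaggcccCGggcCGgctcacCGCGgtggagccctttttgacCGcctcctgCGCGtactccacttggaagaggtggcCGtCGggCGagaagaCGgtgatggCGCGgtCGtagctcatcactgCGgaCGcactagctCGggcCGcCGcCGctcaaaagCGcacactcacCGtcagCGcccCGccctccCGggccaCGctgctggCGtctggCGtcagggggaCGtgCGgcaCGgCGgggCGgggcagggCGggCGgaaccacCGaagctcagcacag

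All 3 genes that define the Brd9-containing complex were lower in all 3 leukemias than in WT. Brd9 itself changed little: it stood at 92.0, 86.0 and 93.1 CPM in the WT libraries, at 72.9, 73.6 and 75.6 in BN1, at 76.1, 70.5 and 75.3 in ME and at 84.2, 85.0 and 79.9 in MA9. BN1 and ME overlapped each other and lay below WT, with MA9 between. The log2 fold change was -0.29 ± 0.05 in BN1 (adjusted p = 1.54e-05), -0.12 ± 0.05 in MA9 (adjusted p = 0.0355) and -0.29 ± 0.05 in ME (adjusted p = 1.54e-05). Reads of the fusion that fall in BRD9 sequence would be counted as Brd9 only where they map to the mouse gene. The log2 value of BN1 was 0.00 ± 0.05 against ME (adjusted p = 0.982). Against MA9 it was called lower, at -0.17 ± 0.05 (adjusted p = 0.00643). The call of MA9 against WT was lost without WT replicate 1 (adjusted p = 0.0869), WT replicate 3 (0.115), BN1 replicate 2 (0.054), MA9 replicate 1 (0.0601) or MA9 replicate 3 (0.161). It was also lost with upper-quartile scaling (0.4) or no filter (0.136).

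Bicra and Bicral, the 2 interchangeable scaffolds of the Brd9-containing complex, were each lower than WT in all 3 leukemias, Bicra with its lowest mean in ME and Bicral in BN1. Bicra stood at 85.3, 88.8 and 93.5 CPM in WT, 49.1, 47.2 and 52.5 in BN1, 40.7, 41.9 and 39.2 in ME and 47.6, 38.7 and 46.7 in MA9. No leukemic library reached the lowest WT library, and the fall on the log2 scale was -0.85 ± 0.07 in BN1, -1.13 ± 0.07 in ME and -1.01 ± 0.07 in MA9 (adjusted p at most 3.91e-12). Bicral stood at 66.1, 69.2 and 63.1 CPM in WT, 34.8, 35.2 and 37.1 in BN1, 51.0, 53.2 and 47.5 in ME and 48.6, 47.4 and 49.9 in MA9. BN1 was lowest and overlapped no other group. Its log2 fold change was -0.89 ± 0.06 against WT (adjusted p = 1.73e-13) and -0.47 ± 0.05 against the mean of MA9 and ME (adjusted p = 9.9e-09). Bicra by contrast was higher in BN1 than in ME (0.29 ± 0.07, adjusted p = 0.000701) and than in the mean of both (0.23 ± 0.06, adjusted p = 0.00141). A smaller difference from MA9 (0.16 ± 0.07, adjusted p = 0.0375) was lost without BN1 replicate 1 (adjusted p = 0.0517), BN1 replicate 3 (0.144) or MA9 replicate 2 (0.318, log2 fold change 0.08), and with upper-quartile scaling (0.0967).

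Of the defining genes of the polybromo complex, Arid2 fell and Phf10 rose in BN1. Arid2, its DNA-binding scaffold, stood at 135, 122 and 123 CPM in WT, 72.1, 76.3 and 76.4 in BN1, 131, 147 and 131 in ME and 140.3, 133 and 135 in MA9. The BN1 libraries were far below all others, while MA9 and ME overlapped WT. Arid2 was lower in BN1 than in WT (-0.76 ± 0.05, adjusted p = 4.27e-13), than in MA9 (-0.86 ± 0.05, adjusted p = 4.65e-14) and than in ME (-0.86 ± 0.05, adjusted p = 5.38e-14). It was not called in MA9 or ME against WT (0.10 ± 0.05 in each, adjusted p = 0.0814 and 0.078), though it was called higher in both with upper-quartile scaling (adjusted p = 0.00423 and 0.0106), with no filter (0.0364 and 0.0341) and without WT replicate 1 (0.0167 and 0.0141). The ME value was also called without ME replicate 1 (adjusted p = 0.0449) or ME replicate 3 (0.0323).

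Phf10 is a PHD-finger subunit of the polybromo complex. It stood at 63.8, 62.2 and 65.7 CPM in WT, 102, 96.8 and 95.5 in BN1, 54.8, 57.5 and 59.8 in ME and 49.7, 54.9 and 53.4 in MA9. Every BN1 library lay above every other library. Phf10 was higher in BN1 than in WT (0.62 ± 0.05, adjusted p = 4.16e-11), lower than WT in MA9 (-0.28 ± 0.06, adjusted p = 7.02e-05) and lower in ME (-0.16 ± 0.06, adjusted p = 0.0137). The ME call was lost without WT replicate 3 (adjusted p = 0.0585) or ME replicate 1 (0.0944), and with upper-quartile scaling (0.0875) or no filter (0.05). Its overlapping neighbour 1600012H06Rik, which shares 945 bases with it, averaged 25.0 CPM in WT, 54.6 in BN1, 21.0 in ME and 16.2 in MA9. The sources used here do not say whether counting used the strand, and the share of Phf10 counts that this overlap holds was not tested. The 3 nearest tested protein-coding genes on each side differed by 0.15 to 2.21 between BN1 and the mean of MA9 and ME. Phf10 itself differed by 0.83. All of these neighbours but Unc93a (adjusted p = 0.594), which lay 1801214 bases from Phf10, were called higher in BN1. Against WT, 9030025P20Rik in BN1 was not called (0.04, adjusted p = 0.591). Unc93a, Wdr27, Gm3417 and Gm3448 averaged at most 3.62 CPM in any group. Any link of these differences to that of Phf10 was not tested.

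Pbrm1 and Brd7, the bromodomain subunits of the polybromo complex, moved little. Pbrm1, the polybromo protein itself, stood at 165, 139.7 and 142 CPM in WT, 152, 143 and 142 in BN1, 135, 139.6 and 130.4 in ME and 131, 139 and 129.8 in MA9. It did not pass the test in BN1 (-0.03 ± 0.05, adjusted p = 0.595), and WT replicate 1 stood above the other WT libraries. The calls in MA9 (-0.16 ± 0.05, adjusted p = 0.00942) and ME (-0.14 ± 0.05, adjusted p = 0.0223) were lost without WT replicate 1 (-0.08 and -0.06, adjusted p = 0.154 and 0.314) and with upper-quartile scaling (-0.09 in each, adjusted p = 0.151 and 0.147). The ME call was also lost without ME replicate 1 (adjusted p = 0.0599) or ME replicate 3 (0.0991). Brd7 stood at 105, 96.7 and 97.3 CPM in WT, 116, 120.3 and 111 in BN1, 123, 118 and 127 in ME and 121, 131 and 116 in MA9. All leukemic libraries were above all WT libraries, with log2 fold changes of 0.21 ± 0.05 in BN1, 0.30 ± 0.05 in ME and 0.30 ± 0.05 in MA9 (adjusted p at most 0.000656).

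Among the canonical subunits, Arid1b gave the largest rise against WT of the 30 tested genes, while Arid1a moved little. Arid1b stood at 124, 121 and 126 CPM in WT, 114, 108 and 115 in BN1, 168, 172 and 146 in ME and 325, 313 and 327 in MA9. No 2 groups overlapped, and MA9 stood far above the rest. Against WT, Arid1b was higher in MA9 (1.38 ± 0.05, adjusted p = 2.6e-19) and in ME (0.40 ± 0.05, adjusted p = 1.32e-07), and MA9 exceeded ME by 0.99 ± 0.05 (adjusted p = 2.86e-15). In BN1 it was slightly lower than in WT (-0.14 ± 0.05, adjusted p = 0.0212), a call that was lost without WT replicate 3 (adjusted p = 0.0722) or BN1 replicate 2 (0.155), and with upper-quartile scaling (0.105). The 3 nearest tested protein-coding genes on each side of Arid1b differed by -0.17 to 0.07 between MA9 and ME. They lay 63208 to 1795438 bases from Arid1b, with the nearest on the side of its start at 1436501 bases.

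Arid1a, the more abundant alternative to Arid1b, stood at 308, 317 and 312 CPM in WT, 366, 349 and 387 in BN1, 391, 396 and 339.7 in ME and 394, 371 and 389 in MA9. The leukemias overlapped each other and lay above WT, with log2 fold changes of 0.23 ± 0.05 in BN1, 0.27 ± 0.05 in ME and 0.30 ± 0.05 in MA9 (adjusted p at most 0.000174). The ratio of Arid1a to Arid1b in CPM was therefore 1.34 ± 0.05 on the log2 scale in WT, 1.71 ± 0.03 in BN1, 1.21 ± 0.01 in ME and 0.26 ± 0.02 in MA9 (mean ± SD, n = 3). These ratios are not corrected for length, which affects their level but not their change between groups. Per kilobase of exon, Arid1a and Arid1b stood at 27.2 and 9.79 CPM in WT and at 33.5 and 25.5 in MA9.

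Of the Dpf proteins, which read acetylated histone tails for the canonical complex, Dpf2 was the one expressed at a substantial level. Dpf2 stood at 97.9, 101 and 100.4 CPM in WT, 81.9, 81.5 and 86.5 in BN1, 95.7, 97.9 and 101 in ME and 103, 101 and 106 in MA9, and it was lower in BN1 than in WT (-0.26 ± 0.05, adjusted p = 2.16e-05) and than in the mean of MA9 and ME (-0.27 ± 0.04, adjusted p = 1.93e-06). Dpf3, a subunit known from muscle and neurons, stood at 3.88, 3.602 and 3.14 CPM in WT, 0, 0.0450 and 0.0383 in BN1, 0.339, 0.0453 and 0.278 in ME and 1.005, 1.04 and 0.875 in MA9. The WT libraries were above all others, on 199 counts in WT against 2 in BN1, 13 in ME and 62 in MA9. WT exceeded BN1 by a factor of 129, with a 95% counting interval of 35.3 to 1074, exceeded MA9 by 3.65 (2.73 to 4.94) and exceeded ME by 16.6 (9.49 to 31.7). These intervals cover counting error only. The log2 fold change of MA9 against ME was 2.15 ± 0.46 (adjusted p = 0.000349), and the difference between BN1 and ME (adjusted p = 0.00909) was lost without ME replicate 1 (adjusted p = 0.0664). Dpf1, the neuronal Dpf protein, had 36 counts over all 12 libraries and was not tested, and 5 neuron markers summed to at most 3.2 CPM in any library.

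**Figure D1:**
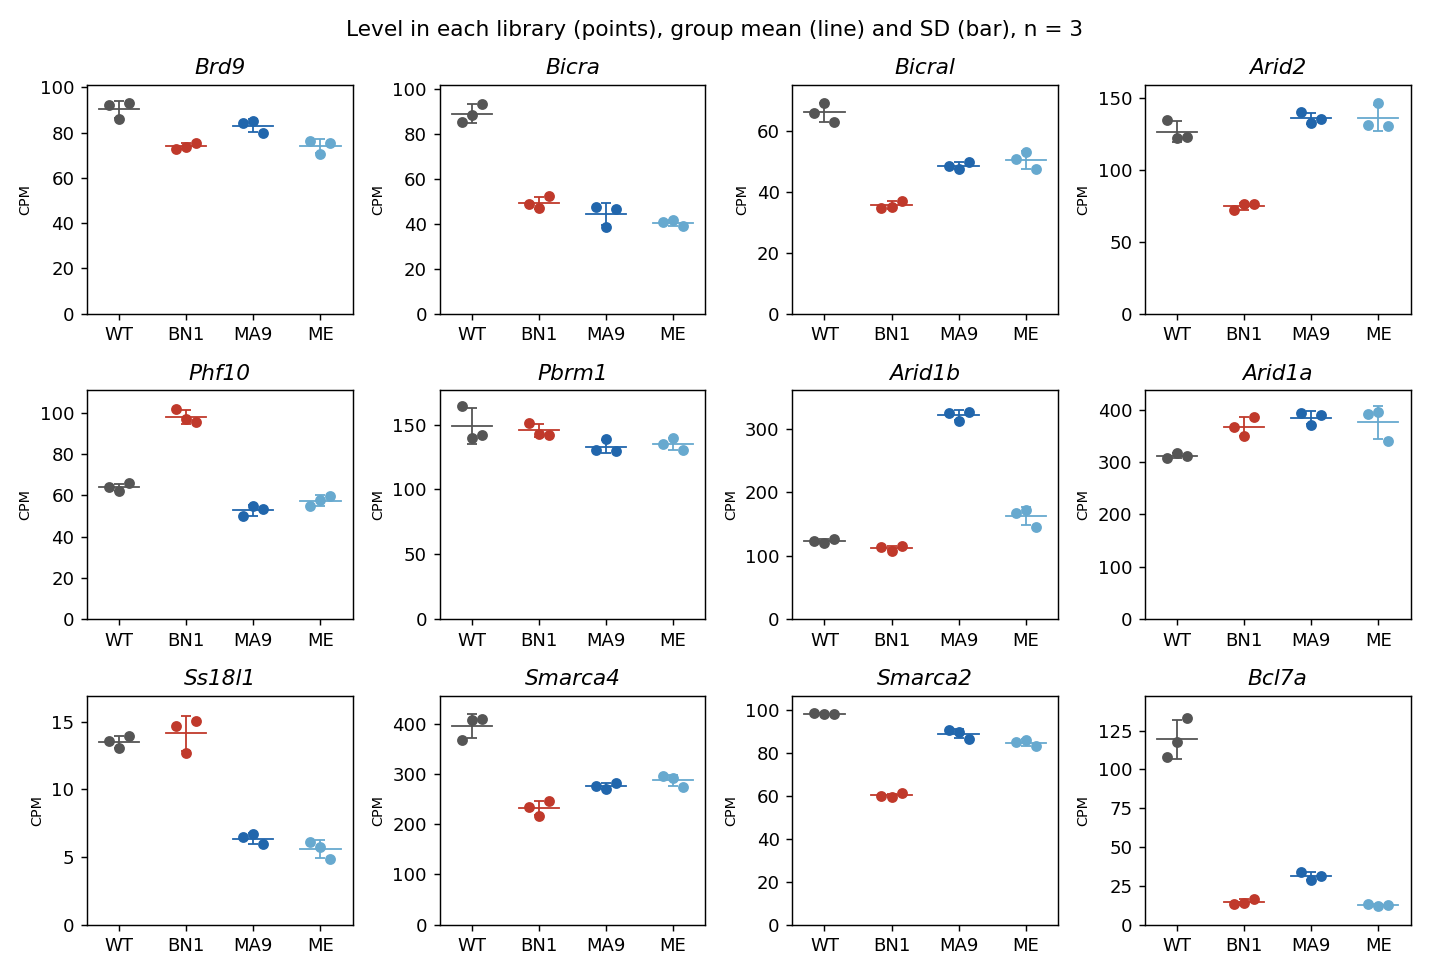
Level in CPM (y axis, from 0) of 12 subunits in each library (points), with group means (lines) and SD (bars, n = 3), for WT, BN1, MA9 and ME. Arid2 was lowest and Phf10 highest in the 3 BN1 libraries, Arid1b was highest in the 3 MA9 libraries, and Bcl7a was above 100 CPM in the WT libraries alone.

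Both catalytic ATPases were lower in every leukemia than in WT, and most so in BN1. Smarca4 stood at 369, 409 and 411 CPM in WT, 235, 217 and 246 in BN1, 297, 291 and 275 in ME and 277, 271 and 283 in MA9. The 9 leukemic libraries were all below the WT libraries, with log2 fold changes of -0.77 ± 0.05 in BN1, -0.46 ± 0.05 in ME and -0.52 ± 0.05 in MA9 (adjusted p at most 3.73e-09). Smarca2 stood at 98.4, 97.9 and 98.0 CPM in WT, 59.9, 59.5 and 61.1 in BN1, 85.0, 86.1 and 82.9 in ME and 90.5, 89.5 and 86.5 in MA9. BN1 was set apart from all other libraries by a log2 fold change of -0.71 ± 0.05 against WT (adjusted p = 1.8e-13) and -0.53 ± 0.04 against the mean of MA9 and ME (adjusted p = 1.03e-11). The smaller fall of Smarca2 in MA9 (-0.14 ± 0.05, adjusted p = 0.00791) was lost with upper-quartile scaling (-0.07, adjusted p = 0.18) or no filter (adjusted p = 0.0586). Smarca4 was also lower in BN1 than in MA9 (-0.25 ± 0.05, adjusted p = 8.19e-05) and ME (-0.31 ± 0.05, adjusted p = 6.07e-06). Summed levels of 10 proliferation markers were 2447 to 2494 CPM in BN1, 3504 to 3746 in ME, 3714 to 3916 in WT and 4035 to 4070 in MA9. The sum was lowest in BN1 and highest in MA9. Smarca4 was lowest in BN1 and highest in WT. Mki67 and Ccna2 averaged in the same order of groups as Smarca4. They stood at 1290 and 213 CPM in WT, 792 and 119 in ME, 678 and 106 in MA9 and 572 and 55.0 in BN1. No other marker of the list had that order. Mcm3 and Mcm6 averaged higher in BN1 (251 and 298 CPM) than in WT (204 and 253), and the other markers lower. The part of proliferation in the Smarca4 differences was not tested.

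The core subunits shared by the complexes divided into rising, steady and falling genes. Smarcc1, a scaffold on which the core assembles, averaged 109.9 ± 2.15 CPM in WT and was higher in BN1 (130.2 ± 2.69), MA9 (151 ± 2.38) and ME (149.9 ± 7.94), with adjusted p at most 3.28e-05. Its paralog Smarcc2 averaged 237 ± 8.98 CPM in WT, 222 ± 5.21 in BN1, 214 ± 9.20 in ME and 229 ± 7.91 in MA9. It passed the test in ME (-0.15 ± 0.05, adjusted p = 0.00517), a call lost with upper-quartile scaling (-0.10, adjusted p = 0.0611). The values of Smarcc2 in BN1 (-0.09 ± 0.05, adjusted p = 0.0689) and MA9 (-0.05 ± 0.05, adjusted p = 0.338) were called lower with RLE scaling (adjusted p = 0.00744 and 0.0432) and DESeq2 (0.00482 and 0.0399), and that in BN1 also with the stricter filter (0.0382) or without WT replicate 1 (0.033). Smarcb1, the tumor suppressor that contacts the nucleosome's acidic patch, averaged 63.3 ± 2.51 CPM in WT, 58.6 ± 1.31 in BN1, 78.4 ± 3.30 in ME and 84.8 ± 1.97 in MA9. It was higher than WT in MA9 (0.42 ± 0.05, adjusted p = 3.8e-08) and ME (0.31 ± 0.05, adjusted p = 7.53e-06), and lower in BN1 than in the mean of those 2 (-0.48 ± 0.05, adjusted p = 4.33e-10). Its value in BN1 against WT was not called (-0.11 ± 0.05, adjusted p = 0.0615). That value was called lower with RLE scaling (0.00848), DESeq2 (0.00675) or the stricter filter (0.0363), or without WT replicate 1 (0.0378). Smarce1, an HMG-box subunit, averaged 97.0 to 102 CPM in the 4 groups and passed no test, though with upper-quartile scaling it was called higher in MA9 than in WT (adjusted p = 0.00885).

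The 3 Smarcd paralogs fill 1 position in the core. Smarcd2, the paralog known for its role in granulocyte development, was the most abundant, at 183, 200.1 and 201 CPM in WT, 168, 176 and 181 in BN1, 181, 183 and 178 in ME and 189.7, 184 and 208 in MA9. The BN1 libraries were slightly lower than WT (-0.15 ± 0.05, adjusted p = 0.00711) and MA9 (-0.15 ± 0.05, adjusted p = 0.0122). Both calls were lost without BN1 replicate 1 (adjusted p = 0.0619 and 0.0905), and the second also without MA9 replicate 3 (-0.09, adjusted p = 0.148). Smarcd1 stood at 39.3, 38.2 and 41.2 CPM in WT, 29.2, 27.1 and 27.3 in BN1, 37.1, 39.7 and 35.2 in ME and 34.0, 35.1 and 34.6 in MA9. BN1 overlapped no other group (-0.51 ± 0.07 against WT, adjusted p = 1.07e-07), and the call in MA9 (-0.19 ± 0.07, adjusted p = 0.00962) was lost with upper-quartile scaling (-0.12, adjusted p = 0.0992). Smarcd3, the paralog of heart and muscle, had 101 counts over the 12 libraries and stood at 0.647, 0.394 and 0.717 CPM in WT and 0.247, 0.315 and 0.115 in BN1, 0.242, 0.272 and 0.611 in ME and 0.653, 0.475 and 0.292 in MA9. It was lower in BN1 (-1.39 ± 0.53, adjusted p = 0.0185), a call that was lost without WT replicate 1 (adjusted p = 0.0587), WT replicate 3 (0.0743) or BN1 replicate 3 (0.1).

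Ss18 and Ss18l1 are alternative subunits of the canonical and Brd9-containing complexes, and Ss18 is the gene fused to SSX in synovial sarcoma. Ss18l1 stood at 13.5, 13.1 and 13.9 CPM in WT, 14.7, 12.7 and 15.1 in BN1, 6.14, 5.71 and 4.83 in ME and 6.48, 6.69 and 5.93 in MA9. BN1 overlapped WT, and the MA9 and ME libraries lay at around 5 to 7 CPM, below both. Ss18l1 was lower than WT in MA9 (-1.08 ± 0.12, adjusted p = 3.57e-09) and ME (-1.27 ± 0.12, adjusted p = 2.39e-10), did not pass the test in BN1 (0.07 ± 0.11, adjusted p = 0.581), and was 1.25 ± 0.10 higher in BN1 than in the mean of MA9 and ME (adjusted p = 6.14e-12). Ss18 ran opposite, averaging 73.1 ± 1.94 CPM in WT, 73.7 ± 3.80 in BN1, 95.9 ± 6.16 in ME and 98.8 ± 6.68 in MA9, with BN1 lower than the mean of the others by -0.40 ± 0.05 (adjusted p = 7.11e-08). The log2 ratio of Ss18 to Ss18l1 in CPM was 2.44 ± 0.06 in WT and 2.38 ± 0.21 in BN1, against 4.11 ± 0.26 in ME and 3.96 ± 0.11 in MA9. Psma7, the proteasome gene which reaches into the printed Ss18l1 window, averaged 148 CPM in WT, 232 in BN1, 191 in ME and 190 in MA9.

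**Figure D2:**
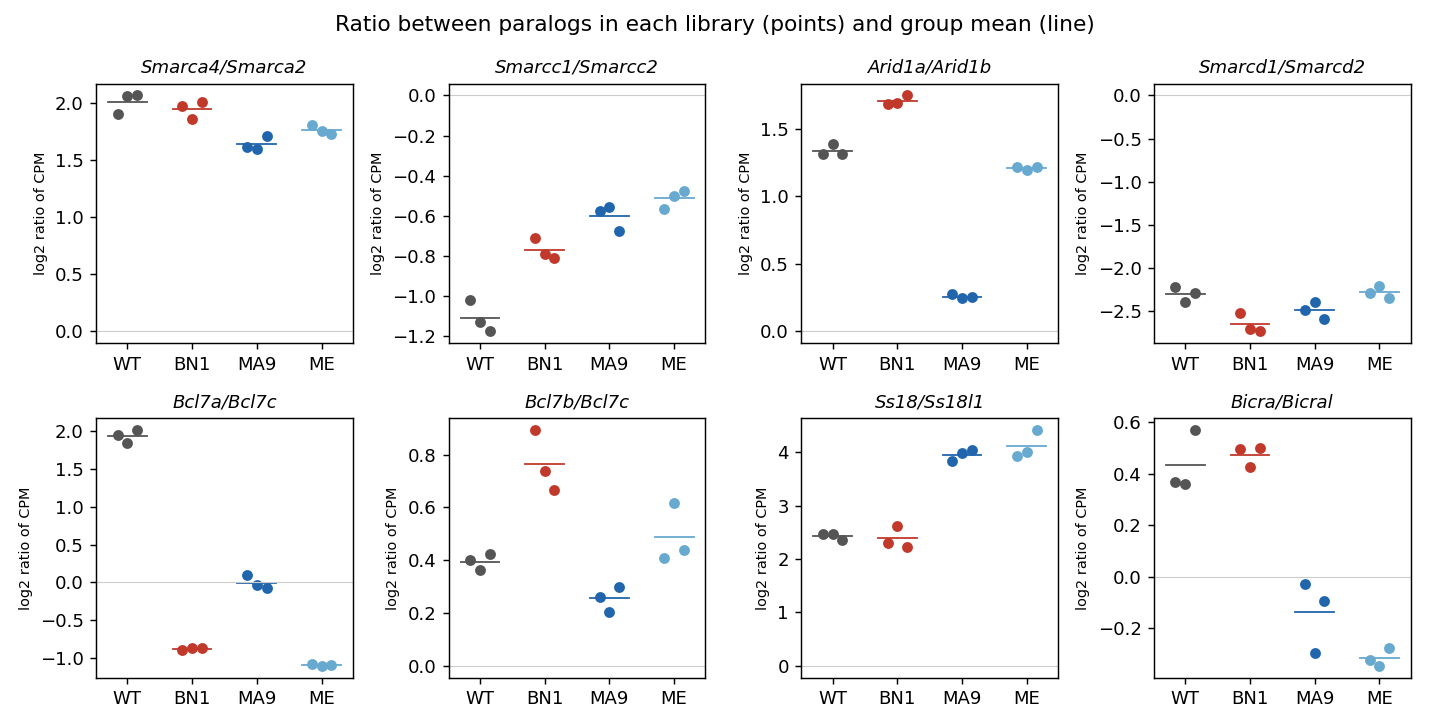
Log2 ratio of CPM (y axis) between 8 pairs of paralogs in each library (points) with group means (lines), for WT, BN1, MA9 and ME. The Arid1a/Arid1b ratio was lowest in MA9, at 0.26, and the Ss18/Ss18l1 ratio was near 4 in MA9 and ME and near 2.4 in WT and BN1.

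The actin and Bcl7 module, which couples the ATPase to actin-related proteins, held the largest fall of an abundant subunit. Bcl7a, a gene first found rearranged in B cell lymphoma, stood at 108, 117 and 133 CPM in WT, 13.3, 13.9 and 16.6 in BN1, 13.3, 12.02 and 12.7 in ME and 33.7, 28.7 and 31.1 in MA9. Every leukemic library was far below every WT library, by log2 fold changes of -3.03 ± 0.09 in BN1, -3.24 ± 0.09 in ME and -1.94 ± 0.08 in MA9 (adjusted p at most 7.13e-18), and MA9 exceeded ME by 1.30 ± 0.10 (adjusted p = 1.1e-11). Levels of 5 B cell markers (Cd79a, Cd79b, Ms4a1, Pax5 and Vpreb1) summed to 749 to 848 CPM in WT, to at most 0.740 in BN1, 1.35 in ME and 18.9 in MA9. Ms4a1 was at 0 in MA9, Ms4a1 and Pax5 were at 0 in ME, and no marker of the list was at 0 in WT or BN1. The MA9 sum was nearly all Cd79b, at 17.6 CPM. Their part in the Bcl7a result was not tested. The nearest tested protein-coding gene 5′ of Bcl7a, Wdr66, averaged 1.17 CPM in WT, 21.5 in BN1, 1.04 in ME and 10.3 in MA9.

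Bcl7b and Bcl7c, the paralogs of Bcl7a, stayed within a narrow range. Bcl7b averaged 41.2 ± 3.64 CPM in WT, 45.4 ± 2.87 in BN1, 37.8 ± 1.59 in ME and 37.4 ± 3.28 in MA9, and was higher in BN1 than in the mean of MA9 and ME (0.28 ± 0.06, adjusted p = 0.000365). Bcl7c averaged 31.4 ± 2.75 CPM in WT, 26.8 ± 3.04 in BN1, 26.9 ± 1.17 in ME and 31.3 ± 1.73 in MA9. Its calls were the least stable of the module. In BN1 against WT (-0.22 ± 0.08, adjusted p = 0.0168) the call was lost without WT replicate 2 (adjusted p = 0.0736), WT replicate 3 (0.0783), BN1 replicate 1 (0.108) or BN1 replicate 2 (0.098). In ME against WT (-0.22 ± 0.08, adjusted p = 0.0209) it was lost without WT replicate 2 (0.0827), WT replicate 3 (0.0871) or ME replicate 2 (0.082), and with upper-quartile scaling (0.0737). The calls of BN1 against MA9 (adjusted p = 0.0206) and MA9 against ME (adjusted p = 0.0415) were each lost without any of 4 libraries: BN1 replicates 1 and 2 with MA9 replicates 1 and 3 (adjusted p = 0.0528 to 0.127), and MA9 replicates 1 and 3 with ME replicates 2 and 3 (adjusted p = 0.0792 to 0.155). DESeq2 (adjusted p = 0.0505) and limma-voom (0.0535) also missed the call of MA9 against ME. The ratio of Bcl7a to Bcl7c in CPM went from 3.81 in WT to 0.544 in BN1, 0.470 in ME and 0.996 in MA9.

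Actb, the actin subunit of the complexes and a major cytoskeletal gene, stood at 7612, 7057 and 7236 CPM in WT, 3989.9, 4097 and 3872 in BN1, 3579, 3594 and 3776 in ME and 3722, 3928 and 3726 in MA9. The leukemic libraries were all lower, with log2 fold changes of -0.87 ± 0.04 in BN1 and -0.95 ± 0.04 in MA9, and with ME the lowest in its mean (adjusted p at most 1.08e-17). Near-identical pseudogene copies of Actb exist, so the assignment of its reads is uncertain. BN1 was slightly higher than ME (0.13 ± 0.04, adjusted p = 0.00552), and a difference of BN1 from the mean of MA9 and ME (0.10 ± 0.03, adjusted p = 0.0102) was lost without BN1 replicate 2 (adjusted p = 0.0627). Actl6a, the actin-related subunit of progenitor cells, averaged 59.0 ± 1.42 CPM in WT and rose to 74.3 ± 3.67 in BN1, 75.3 ± 1.91 in ME and 71.7 ± 1.65 in MA9 (adjusted p at most 3.15e-05). Its neuronal alternative Actl6b had 5 counts in all 12 libraries and was not tested.

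The 3 tested ATPases outside SWI/SNF were higher than WT in all leukemias, and Smarca5 and Smarcal1 most so in BN1. Smarca5 (SNF2H), the ATPase of ISWI complexes that space nucleosomes, stood at 169, 166 and 162 CPM in WT, 261, 257 and 249 in BN1, 213, 208 and 229.8 in ME and 216, 219.8 and 203 in MA9. Smarcal1, an annealing helicase that restarts stalled replication forks, stood at 37.8, 38.2 and 38.7 CPM in WT, 72.1, 66.9 and 72.1 in BN1, 50.2, 52.5 and 48.3 in ME and 51.0, 50.4 and 51.6 in MA9. For both genes the BN1 libraries were above all others and WT below all others. The log2 fold change in BN1 against WT was 0.63 ± 0.05 for Smarca5 (adjusted p = 1.44e-12) and 0.88 ± 0.06 for Smarcal1 (adjusted p = 5.8e-14), and against the mean of MA9 and ME it was 0.25 ± 0.04 (adjusted p = 3.29e-06) and 0.47 ± 0.05 (adjusted p = 7.54e-10). Smarcad1, a remodeller of silent chromatin, averaged 31.6 ± 2.52 CPM in WT, 44.8 ± 2.19 in BN1, 41.0 ± 0.733 in ME and 40.9 ± 1.77 in MA9, higher than WT in each leukemia (adjusted p at most 1.99e-05), and its value in BN1 against the mean of the other leukemias was 0.13 ± 0.06 (adjusted p = 0.0502), called with RLE scaling (0.0372), DESeq2 (0.0421) and limma-voom (0.042). Smarca1, the second ISWI ATPase, was listed at 0 counts in all 12 libraries, which allows a level of up to 0.0119 CPM over them.

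Counted together, 8 of the 30 tested subunits were higher and 15 lower in BN1 than in WT, beside 38.4% of all tested genes higher and 40.8% lower. In MA9 the counts were 10 and 12 (39.3% and 40.8% of all genes), and in ME 10 and 13 (39.0% and 40.2%). With a fold of at least 1.5 required as well, 3 were higher (Phf10, Smarca5 and Smarcal1) and 9 lower in BN1, beside 23.3% and 30.5% of all genes. In MA9 these were 1, Arid1b, and 5 (25.1% and 30.6%), and in ME 0 and 5 (24.3% and 30.2%). Actb, Bcl7a, Dpf3 and Bicra were among those lower by that fold in each leukemia, Ss18l1 was lower in MA9 and ME, and Arid2, Bicral, Smarca2, Smarca4 and Smarcd3 in BN1. The median size of the log2 fold change over the 30 genes was 0.31 in BN1, 0.33 in ME and 0.31 in MA9, beside 0.71, 0.72 and 0.75 over all genes. The 3 comparisons share the WT libraries.

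**Figure D3:**
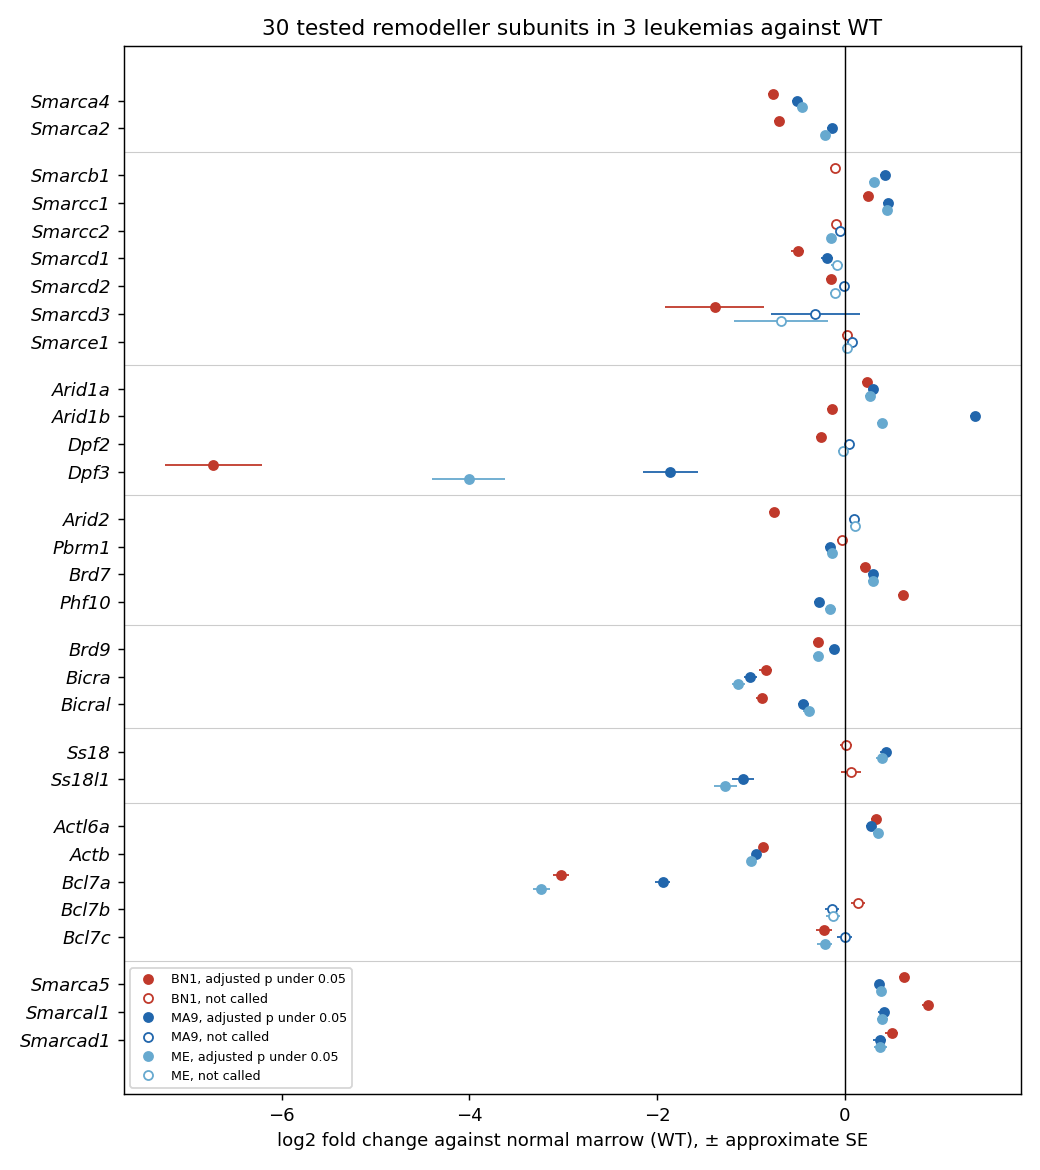
Log2 fold change against WT (x axis, bars ± approximate SE) of the 30 tested genes in BN1, MA9 and ME, grouped by role, with filled points called at an adjusted p under 0.05 and open points not called. Arid1b in MA9 lay furthest to the right, at 1.38, and Dpf3 and Bcl7a furthest to the left.

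Directly between leukemias, 7 subunits were higher and 15 lower in BN1 than in MA9, beside 32.8% and 34.9% of all genes, and 7 higher and 11 lower in BN1 than in ME, beside 31.8% and 33%. Against the mean of MA9 and ME, 8 were higher and 12 lower in BN1 (34.1% and 34.9% of all genes). With a fold of at least 1.5 these were Phf10 and Ss18l1 (2 higher, beside 17.9% of all genes) and Arid1b, Arid2 and Dpf3 (3 lower, beside 17.8%). Lower in BN1 in this comparison were both SWI/SNF ATPases (Smarca4 and Smarca2) and 3 of 7 core subunits (Smarcb1, Smarcc1 and Smarcd1). So were 3 of 4 tested canonical subunits (Arid1b, Dpf2 and Dpf3), beside 34.9% of all genes. In these roles 0 were higher, and Smarcc2, Smarcd2, Smarcd3, Smarce1 and Arid1a were not called. The MLL leukemias were close to each other, with 5 subunits higher in MA9 than in ME (Arid1b, Bcl7a, Bcl7c, Brd9 and Dpf3) and 0 lower, beside 20.2% and 20.4% of all genes. At a fold of at least 1.5 the counts were 3 and 0, beside 9.81% and 8.13%. The call of Brd9 (0.17 ± 0.05, adjusted p = 0.0112) was lost without ME replicate 2 (adjusted p = 0.0817). The median size of the difference between MA9 and ME over the 30 genes was 0.07 on the log2 scale, beside 0.23 over all genes. Pbrm1, called higher in BN1 than in MA9 (adjusted p = 0.0392) and than in the mean (adjusted p = 0.0275), lost the first call without BN1 replicate 1 (0.156), MA9 replicate 1 (0.114) or MA9 replicate 3 (0.119), or with upper-quartile scaling (0.13), and the second without BN1 replicate 1 (0.158), MA9 replicate 1 (0.0557), MA9 replicate 3 (0.0547) or ME replicate 3 (0.05), or with upper-quartile scaling (0.0762).

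**Figure D4:**
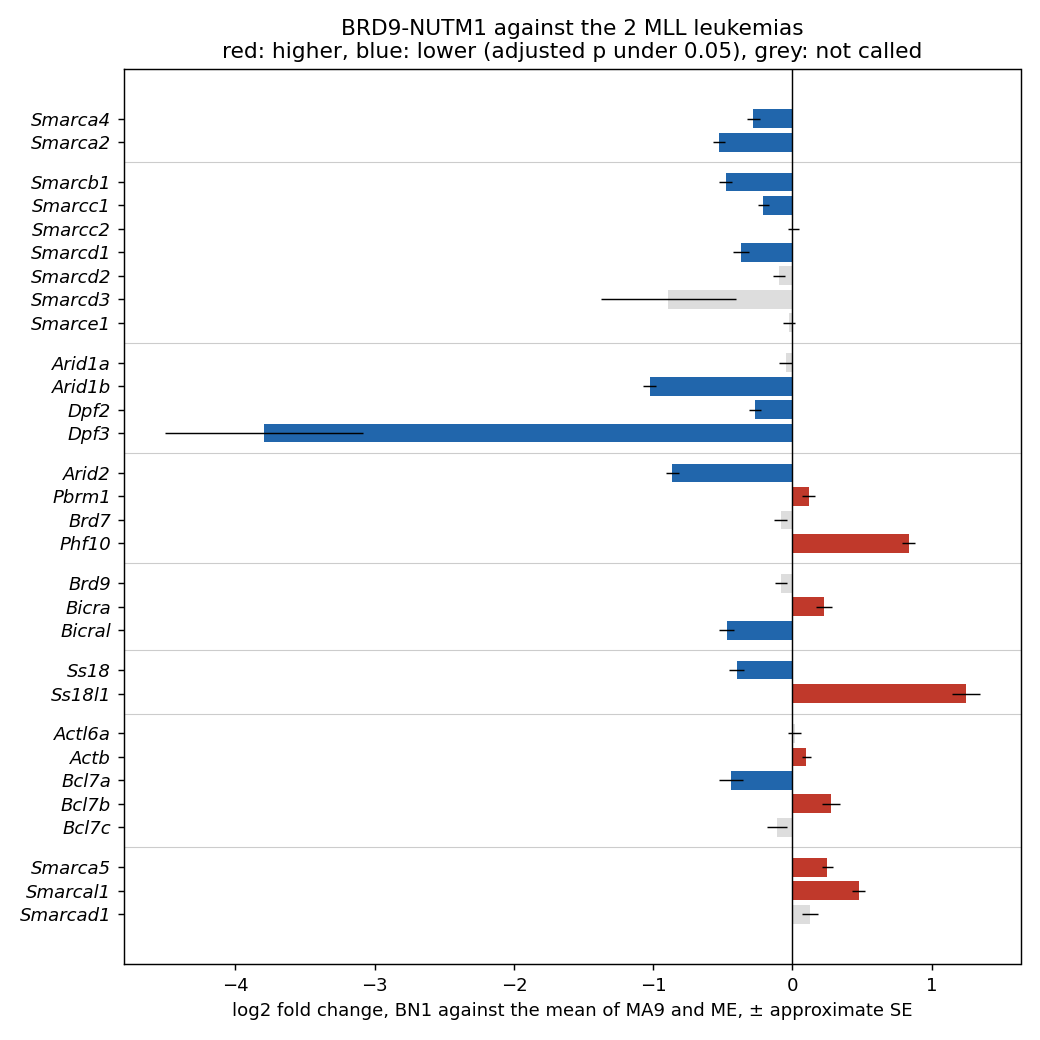
Log2 fold change of BN1 against the averaged MLL leukemias (x axis, bars with approximate SE) for the 30 tested genes, red where higher, blue where lower and grey where not called. Within the polybromo genes Arid2 was at -0.86 and Phf10 at 0.83, and Ss18l1 was the highest of all at 1.25.

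Averaged over the genes that define each complex, as the mean of log2(CPM + 0.5), the 3 complexes behaved differently across the groups. The canonical mean (Arid1a, Arid1b and Dpf2) was 7.30 in WT, 7.24 in BN1, 7.51 in ME and 7.87 in MA9, and MA9 overlapped no other group. It left out Dpf1 and Dpf3, the Dpf genes with low counts, and Dpf3 was lower than WT in all 3 leukemias. Each gene has the same weight in these means, so they depend on the genes chosen. Arid1b made up most of the MA9 value, with Arid1a at 0.30 ± 0.05 and Dpf2 at 0.05 ± 0.05 against WT, beside 1.38 ± 0.05 for Arid1b. The polybromo mean (Arid2, Pbrm1, Brd7 and Phf10) lay between 6.71 and 6.74 in the 4 groups, which overlapped. The steady mean in BN1 combined a lower Arid2 with a higher Phf10, as given above. The mean of the Brd9-containing genes (Brd9, Bicra and Bicral) was 6.35 in WT, 5.68 in BN1, 5.75 in ME and 5.83 in MA9, below WT in all 9 leukemic libraries. The canonical mean minus the Brd9-containing mean, a difference whose level depends on gene length but whose change between groups does not, was 0.95 in WT, 1.56 in BN1, 1.76 in ME and 2.04 in MA9. These means are descriptions of RNA levels and carry no test.

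**Figure D5:**
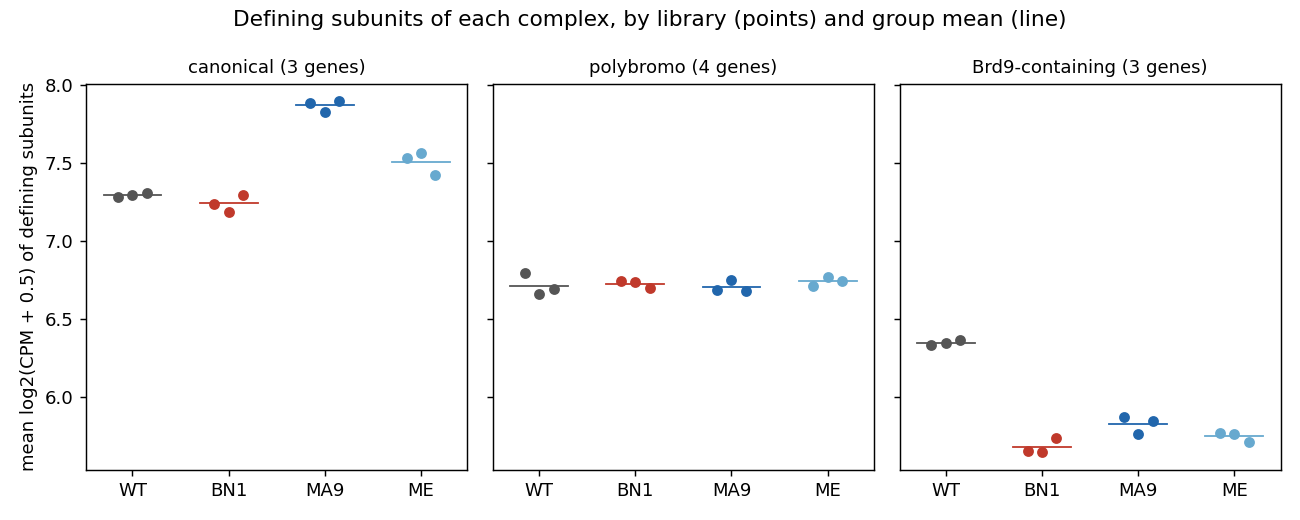
Mean log2(CPM + 0.5) of the genes defining the canonical, polybromo and Brd9-containing complexes (y axis) in each library (points) with group means (lines), for WT, BN1, MA9 and ME. The Brd9-containing mean was 6.35 in WT and between 5.68 and 5.83 in the leukemias, and the polybromo mean lay between 6.71 and 6.74.

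Levels of different genes were compared per kilobase of exon, which depends on the gene model used. With the union of all exons, the highest in WT apart from Actb were Smarca4 at 61.2 CPM per kilobase, Smarcd2 at 54.3, Smarcc2 at 42.7 and Arid1a at 27.2. In BN1 the order was Smarcd2 at 48.8, Smarcc2 at 40.0, Smarca4 at 35.9 and Smarca5 at 32.9. Smarcd2 also led in MA9 (54.0) and ME (50.4), followed in both by Smarca4 at 42.8 and 44.5. With the length of the longest transcript, Smarcd2 led in WT already (70.9, with Smarca4 at 62.1), and Smarca4 stood behind Smarcc2 and Arid1a in each leukemia (48.7 and 44.9 against 36.5 in BN1). The rank of Smarca4 therefore depended on the length used. With the exon union, Arid1b reached 25.5 CPM per kilobase in MA9, close to Smarca5 at 27.4. Smarca1, Actl6b, Dpf1 and Smarcd3 were at most 0.11 CPM per kilobase in every group.

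Other remodeller families were examined through 4 lists of 71 genes, all of them tested. Of 29 genes of the INO80, SRCAP and Tip60-p400 complexes, which exchange histone variants and acetylate histones, 17 were higher and 5 lower in BN1 than in WT, with Trrap rising from 155 ± 3.28 to 309 ± 14.0 CPM and Ino80 from 59.6 ± 2.21 to 111 ± 2.97, while Brd8 and Epc1 fell (-0.69 ± 0.05 and -0.56 ± 0.06). The median log2 fold change of that list was 0.20 in BN1, 0.17 in ME and 0.21 in MA9, beside -0.01 over all genes in each. Of 18 CHD and NuRD genes, 6 were higher and 5 lower in BN1, of 11 ISWI partners 3 and 4, and of 13 other SNF2 ATPases 7 and 3. Over all tested genes the shares were 38.4% higher and 40.8% lower. Baz1a, a partner of Smarca5, averaged 212 ± 8.95 CPM in WT, 378 ± 9.54 in BN1, 697 ± 17.4 in ME and 557 ± 6.96 in MA9, whereas Baz1b rose to a similar level in each leukemia (322 ± 6.89, 317 ± 5.34 and 319.9 ± 11.9 CPM, from 261 ± 5.04 in WT).

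Chd3, an ATPase of the NuRD repressor complex, differed widely between the leukemias. It stood at 98.0, 98.0 and 106 CPM in WT, 352, 341 and 370.4 in BN1, 4.93, 5.17 and 3.33 in ME and 90.4, 78.6 and 87.0 in MA9. BN1 was above all other libraries by a log2 fold change of 1.82 ± 0.06 against WT (adjusted p = 2.46e-19), and ME was below all others (-4.47 ± 0.09, adjusted p = 5.6e-24). Chd9 was highest in MA9, at 342 ± 8.28 CPM, beside 62.8 ± 2.06 in WT, 139 ± 7.20 in BN1 and 101 ± 7.45 in ME. Cecr2, a bromodomain partner of ISWI ATPases, stood at 103, 113 and 112 CPM in WT on 6109 counts and had 10 counts in BN1, 2 in ME and 12 in MA9. WT exceeded BN1 by a factor of 793 (95% counting interval 431 to 1654). Hells, an SNF2 ATPase needed for DNA methylation, rose from 53.9 ± 3.59 CPM in WT to 117 ± 5.05 in BN1 (adjusted p = 2.55e-15). In BN1 it was higher than in the mean of MA9 and ME (0.41 ± 0.05, adjusted p = 5.82e-08). Mta3 and Chd6 were lower in BN1 than in WT (-1.19 ± 0.08 and -0.61 ± 0.07), as were Baz2a (-0.31 ± 0.05), Rad54b (-0.67 ± 0.11) and Zranb3 (-0.54 ± 0.10), and Ercc6l2 was higher (0.95 ± 0.07).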

How the data were processed

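Gene counts of 12 mouse RNA-seq libraries were analysed as the authors deposited them, as whole-number counts per gene. Per the labels' protocols, libraries were made with a TruSeq Stranded mRNA kit, and per the submitters' processing notes HISAT2, featureCounts, DESeq2 and the mm10 build were used. The sources used here name no annotation, strand setting or tool version. A quasi-likelihood model was fitted with edgeR 4.0.16 (R 4.3.3) to the 15334 genes that passed filterByExpr, over all 12 libraries with TMM scaling and no covariate, and 7 comparisons were drawn from it. Adjusted p-values are Benjamini-Hochberg values over all tested genes, and standard errors are approximate, the log2 fold change divided by the square root of F. The libraries held 18292636 to 25732049 counts, and the biological coefficient of variation was 5.87%. Counting intervals are at the 95% level, and a count of 0 was bounded at 3 counts. The alternatives were RLE and upper-quartile scaling, no filter, a stricter filter (1 CPM in 3 libraries), DESeq2 1.42.0, limma-voom (limma 3.58.1), the replicate number as a block, removal of LOC101056014 and Lars2, and leaving out each library. On counts simulated for BN1 against WT (14709 genes), the fit called 72% of 50 genes raised 1.5-fold, 78% of 50 lowered 1.5-fold and 0.0276% of unchanged genes. The simulation left 14512 genes unchanged and used a common spread for every gene. In the real comparison 12146 genes were called, so these shares do not carry over to it. Exon lengths came from GENCODE vM21 (GRCm38), since the RefSeq table used here holds no exons, and promoters from RefSeq GRCm38.p6. All 33 genes were named, with values in every library for the main subunits of each complex, the SWI/SNF ATPases, the Smarcd genes and those with a 1.5-fold change, and from each other list at most 2 called genes in each direction, those with the largest fold change in BN1 against WT. The genes and lists were chosen with earlier results of these data known. The list of B cell markers was shortened by 1 gene that is not reported here.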

Additional observations from a re-analysis of the deposited data

Results flagged for a closer look

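Arid1b and Phf10 were singled out because their differences from WT were called in opposite directions in leukemias whose direct difference was itself called. This rule was set after their values were seen. Other genes, such as Arid2 and Smarcb1, also took opposite signs against WT, but without a call against WT in both directions. Arid1b was higher than WT in MA9 and ME and lower in BN1, and BN1 differed from MA9 by -1.52 and from ME by -0.53 on the log2 scale (edgeR adjusted p = 7.04e-20 and 8.63e-10). Its call in BN1 against WT depended on single libraries, as given above. Phf10 was higher than WT in BN1 and lower in MA9 and ME, and BN1 differed from MA9 by 0.90 and from ME by 0.77 (adjusted p = 2.94e-14 and 7.65e-13).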

How the results depend on the processing

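Among the 30 tested genes and 7 comparisons, 133 values were called and 77 were not, and each was recomputed under 20 alternatives, 12 of which left out 1 library, except the 7 of Smarcd3, which the stricter filter removed. None of the 133 called values changed sign in them, and 21 lost the call somewhere, as given beside those genes. Of the 77 others, 25 were called in an alternative and 27 changed sign, with absolute log2 values of at most 0.0707 and adjusted p of 0.229 or above where they had done so. In the comparisons with WT, RLE scaling moved the log2 values by a median of -0.059 to -0.049. Upper-quartile scaling moved them by a median of 0.040 to 0.074. The cause of the sign changes was not tested. The number of genes called ran over the alternatives from 21 to 25 (BN1 against WT), 21 to 24 (MA9 against WT), 20 to 25 (ME against WT), 18 to 23 (BN1 against MA9), 17 to 19 (BN1 against ME), 4 to 7 (MA9 against ME), 19 to 23 (BN1 against the MLL mean). With the replicate number as a block these counts were 23, 22, 23, 22, 18, 5 and 21 in the same order. Same-numbered libraries correlated at -0.118 to 0.112 in their deviations from group means and others at -0.189 to 0.18, and 4 of 12 libraries correlated best with their own number, so the numbers were not taken as pairs. With RLE scaling, the log2 value was -0.0265 for Smarce1 in BN1 against WT, -0.0386 for Ss18 in BN1 against WT, -0.00939 for Dpf2 in MA9 against WT, -0.0362 for Smarce1 in ME against WT, 0.00972 for Smarce1 in BN1 against ME, 0.00481 for Bcl7c in BN1 against ME, 0.00132 for Arid2 in MA9 against ME. With DESeq2, the log2 value was -0.0267 for Smarce1 in BN1 against WT, -0.0385 for Ss18 in BN1 against WT, -0.00939 for Dpf2 in MA9 against WT, -0.0365 for Smarce1 in ME against WT, 0.00987 for Smarce1 in BN1 against ME, 0.00429 for Bcl7c in BN1 against ME, 0.00131 for Arid2 in MA9 against ME. With upper-quartile scaling, the log2 value was 0.00803 for Pbrm1 in BN1 against WT, 0.0255 for Smarcc2 in MA9 against WT, 0.0661 for Smarcd2 in MA9 against WT, 0.0707 for Bcl7c in MA9 against WT, 0.0282 for Dpf2 in ME against WT, -0.00861 for Brd9 in BN1 against ME, 0.0204 for Arid2 in MA9 against ME, 0.00128 for Pbrm1 in MA9 against ME, 0.00427 for Bcl7b in MA9 against ME, 0.0186 for Smarcad1 in MA9 against ME, -0.0167 for Smarcc2 in BN1 against the MLL mean, -0.00699 for Actl6a in BN1 against the MLL mean. With the stricter filter, the log2 value was -0.00210 for Ss18 in BN1 against WT, 0.00257 for Smarce1 in BN1 against ME. With no filter, the log2 value was 0.0146 for Smarcd2 in MA9 against WT, 0.0193 for Bcl7c in MA9 against WT, -0.00165 for Brd9 in BN1 against ME. With limma-voom, the log2 value was 7.55e-05 for Bcl7c in MA9 against WT, 0.00109 for Smarce1 in BN1 against ME. With the replicate block, the log2 value was 3.68e-05 for Smarce1 in BN1 against ME. Without LOC101056014 and Lars2, the log2 value was 0.00590 for Smarce1 in BN1 against ME, 0.00120 for Bcl7c in BN1 against ME, 0.00575 for Arid2 in MA9 against ME, 0.00395 for Smarcad1 in MA9 against ME. Over the fits that left out 1 library, values that changed sign ran -0.0731 to 0.0515 for Pbrm1 in BN1 against WT, -0.0142 to 0.0488 for Ss18 in BN1 against WT, -0.0576 to 0.0304 for Smarcd2 in MA9 against WT, -0.0765 to 0.0414 for Bcl7c in MA9 against WT, -0.0113 to 0.0528 for Smarce1 in ME against WT, -0.0375 to 0.00162 for Dpf2 in ME against WT, -0.0249 to 0.0401 for Smarce1 in BN1 against ME, -0.0990 to 0.0102 for Arid1a in BN1 against ME, -0.0287 to 0.0214 for Brd9 in BN1 against ME, -0.0411 to 0.0244 for Actl6a in BN1 against ME, -0.101 to 0.0540 for Bcl7c in BN1 against ME, -0.0263 to 0.0502 for Smarcc1 in MA9 against ME, -0.0375 to 0.0714 for Arid1a in MA9 against ME, -0.0347 to 0.0535 for Arid2 in MA9 against ME, -0.0557 to 0.00304 for Pbrm1 in MA9 against ME, -0.0505 to 0.0372 for Brd7 in MA9 against ME, -0.0116 to 0.0949 for Ss18 in MA9 against ME, -0.0803 to 0.0462 for Bcl7b in MA9 against ME, -0.0575 to 0.0122 for Smarca5 in MA9 against ME, -0.0145 to 0.0467 for Smarcal1 in MA9 against ME, -0.0429 to 0.0200 for Smarcad1 in MA9 against ME, -0.00863 to 0.0270 for Smarcc2 in BN1 against the MLL mean, -0.0394 to 0.00327 for Smarce1 in BN1 against the MLL mean, -0.00495 to 0.0609 for Actl6a in BN1 against the MLL mean. Depth limited Dpf3, Smarcd3, Dpf1 and Actl6b. Levels per kilobase in WT moved by more than their SD for 28 of the 33 genes, and the rank of Smarca4 changed, when the longest transcript replaced the exon union.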

Other observations

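Neighbours of 6 members, taken from the tested protein-coding genes, were listed after those members' values were seen. Slc38a1, an amino acid transporter gene beside Arid2, differed by -2.32 on the log2 scale between BN1 and the mean of the other leukemias, and averaged 141 CPM in WT, 31.8 in BN1, 145 in ME and 175 in MA9. Scaf11, which lies between Slc38a1 and Arid2, differed by -0.29. Pcnx, which lies 1212827 bases from Dpf3, averaged 310 CPM in MA9 and 79.9 to 89.8 in the other groups.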
